A study of Mus musculus with 4 samples.

Results

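The 7 genes described here present antigen or hold together the complexes that do: B2m, H2-K1 and H2-D1 of major histocompatibility complex (MHC) class I, and Cd74, H2-Aa, H2-Ab1 and H2-Eb1 of class II. They were found by symbol in the gene lists of all 4 libraries, where each symbol occurs once, among the 27873 genes listed for both cells and nuclei. All libraries come from untreated mice of CBA/J, an inbred strain, at postnatal day 30, and were made from the stria vascularis (SV). For scRNA-Seq 3 captures of cells were sequenced, for snRNA-Seq 1 capture of nuclei, and each capture was a suspension pooled from several animals. In this droplet assay a barcode stands for a cell or a nucleus and a unique molecular identifier (UMI) for a captured RNA molecule.

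Class I molecules sit on almost all nucleated cells and show peptides from inside the cell to CD8 T cells. Each has a heavy chain, such as those encoded by H2-K1 and H2-D1, and the light chain β2-microglobulin, encoded by B2m, without which the heavy chain does not reach the surface. Class II molecules are pairs of an α and a β chain, H2-Aa with H2-Ab1 in I-A and H2-Eb1 as the β chain of I-E, and are made mainly by macrophages, B cells and dendritic cells. Cd74 encodes the invariant chain, which fills the class II groove until the molecule reaches the endosome. The SV is the epithelium of the cochlear lateral wall that makes endolymph, and it holds resident macrophages beside its marginal, intermediate, basal and spindle/root cells.

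In GENCODE annotation of mm10 (GRCm38) all 7 are protein-coding genes. B2m lies at chr2:122147686-122153083 on the plus strand and overlaps Patl2 on the other strand. Of the chromosome 17 genes, H2-K1 spans chr17:33996017-34000347 (minus), H2-Ab1 chr17:34257689-34269419 (plus), H2-Aa chr17:34282744-34287823 (minus), H2-Eb1 chr17:34305867-34316674 (plus) and H2-D1 chr17:35262730-35267499 (plus). H2-Eb1 overlaps the antisense gene Gm20513. Cd74 lies at chr18:60803848-60812652 on the plus strand, with Mir5107 inside it. H2-K1 and H2-D1 are related paralogs, so that the counting could have split or dropped reads between them, which was not tested. The reference carries the H2-b haplotype of C57BL/6, whereas CBA/J carries H2-k, and the effect of that mismatch on the counts of these polymorphic genes was not tested.

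The RefSeq promoters of B2m, H2-K1, H2-D1, H2-Aa and H2-Eb1 (GRCm38.p6) were searched in the 250 bases before the transcript start on both strands. The windows below are shown because they hold the letters by which class I and class II promoters are usually recognised, and capitals mark the match. The first pair holds, as its capital letters, an NF-kB site as known from the enhancer of class I heavy chain genes.

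H2-K1, chr17:34000438-34000467, minus strand: cccagggctGGGGATTCCCCatctccacag

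H2-D1, chr17:35262914-35262943, plus strand: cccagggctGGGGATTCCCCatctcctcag

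The next window holds an interferon-stimulated response element, searched as GAAA followed by any 2 bases and GAAA again, to which interferon regulatory factors are known to bind.

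B2m, chr2:122147538-122147567, plus strand: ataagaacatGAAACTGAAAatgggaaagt

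The last pair of windows holds CCAAT, inverted as ATTGG, the letters of the Y box bound by NF-Y in class II promoters.

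H2-Aa, chr17:34287854-34287883, minus strand: gagaattttctgATTGGttctggcgagttt

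H2-Eb1, chr17:34305796-34305825, plus strand: cctttgatgctgATTGGctcccagcactgg

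The NF-kB letters were in 10 of 32851 promoters (0.0304%), which include both heavy chains. The response element was in 2.98% of promoters and the 5 letters of the Y box in 33.8%, and none of the printed matches overlaps another. The letters of the Y box were also in the searched promoters of the class I genes B2m, H2-K1 and H2-D1. These are matches of letters and not measured binding.

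Cells and nuclei were grouped by clustering and named from markers. Of 3152 cells, 134 were marginal, 616 intermediate, 94 basal, 30 spindle/root, 18 macrophage-like, 30 B cell-like, 9 neutrophil-like and 101 erythroid-like cells. Of 9723 nuclei, 2576 were marginal, 1462 intermediate, 655 basal, 209 spindle/root, 17 macrophage-like and 203 B cell-like. Smaller classes of nuclei are named where they are used, and 2120 cells and 3949 nuclei stayed unnamed. The median depth was 3878 to 5054 UMIs per barcode in the cell captures and 1561 in the nuclei, and 38.7% to 45.4% of the UMIs of a median cell were mitochondrial against 8.43% in nuclei. Summed over pairs of libraries, 73 barcode sequences were shared. The naming used the markers, so their sums are a description, with macrophage markers summing to 17460 to 22933 CPM, the UMIs of a gene scaled to a common total per sum, in the macrophages of the 3 captures and B cell markers to 3312 to 14694 CPM in the B cells. Levels below are CPM over 27860 shared genes that are not mitochondrial.

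B2m had UMIs in 95.8% to 100% of marginal, intermediate and basal cells and in 76.7% of spindle/root cells, and its level was highest in intermediate cells among the SV types. In intermediate cells, the melanocyte-like layer of the SV, B2m stood at 1325, 1509 and 1156 CPM in captures 1 to 3 (1330 ± 176, SD, n = 3). In marginal cells, the layer that faces the endolymph, it stood at 1054, 875 and 743 CPM (891 ± 156, SD, n = 3). In basal cells it stood at 870, 662 and 830 CPM (787 ± 111, SD, n = 3). Each intermediate value was thus above each marginal and basal value, whereas the marginal and basal values overlapped. In spindle/root cells B2m stood at 309, 450 and 715 CPM (491 ± 206, SD, n = 3), from 4, 13 and 13 cells. Macrophages were highest, at 1785, 2171 and 2111 CPM (2022 ± 207, SD, n = 3). B cells reached 1251, 1981 and 1809 CPM (1680 ± 381, SD, n = 3), which overlaps both macrophages and intermediate cells. Erythroid cells, which lose their nuclei as they mature, were lowest, at 255 and 219 CPM in the 2 captures that held them.

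The heavy chains did not share the ranking of B2m across SV types. H2-K1 stood at 90.5, 139 and 109 CPM in marginal cells. It stood at 84.3, 60.7 and 34.7 CPM in intermediate cells, where B2m was highest. Basal cells had 56.0, 56.2 and 83.0 CPM of H2-K1 and spindle/root cells 120, 45 and 133 CPM. The marginal values lay above the intermediate and the basal ones, and the spindle/root values spread across all of them. H2-D1 was more even, at 108 to 128 CPM in marginal, 92.5 to 112 CPM in intermediate, 64.5 to 116 CPM in basal and 103 to 203 CPM in spindle/root cells, and each pair of these ranges overlapped.

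**Figure D1:**
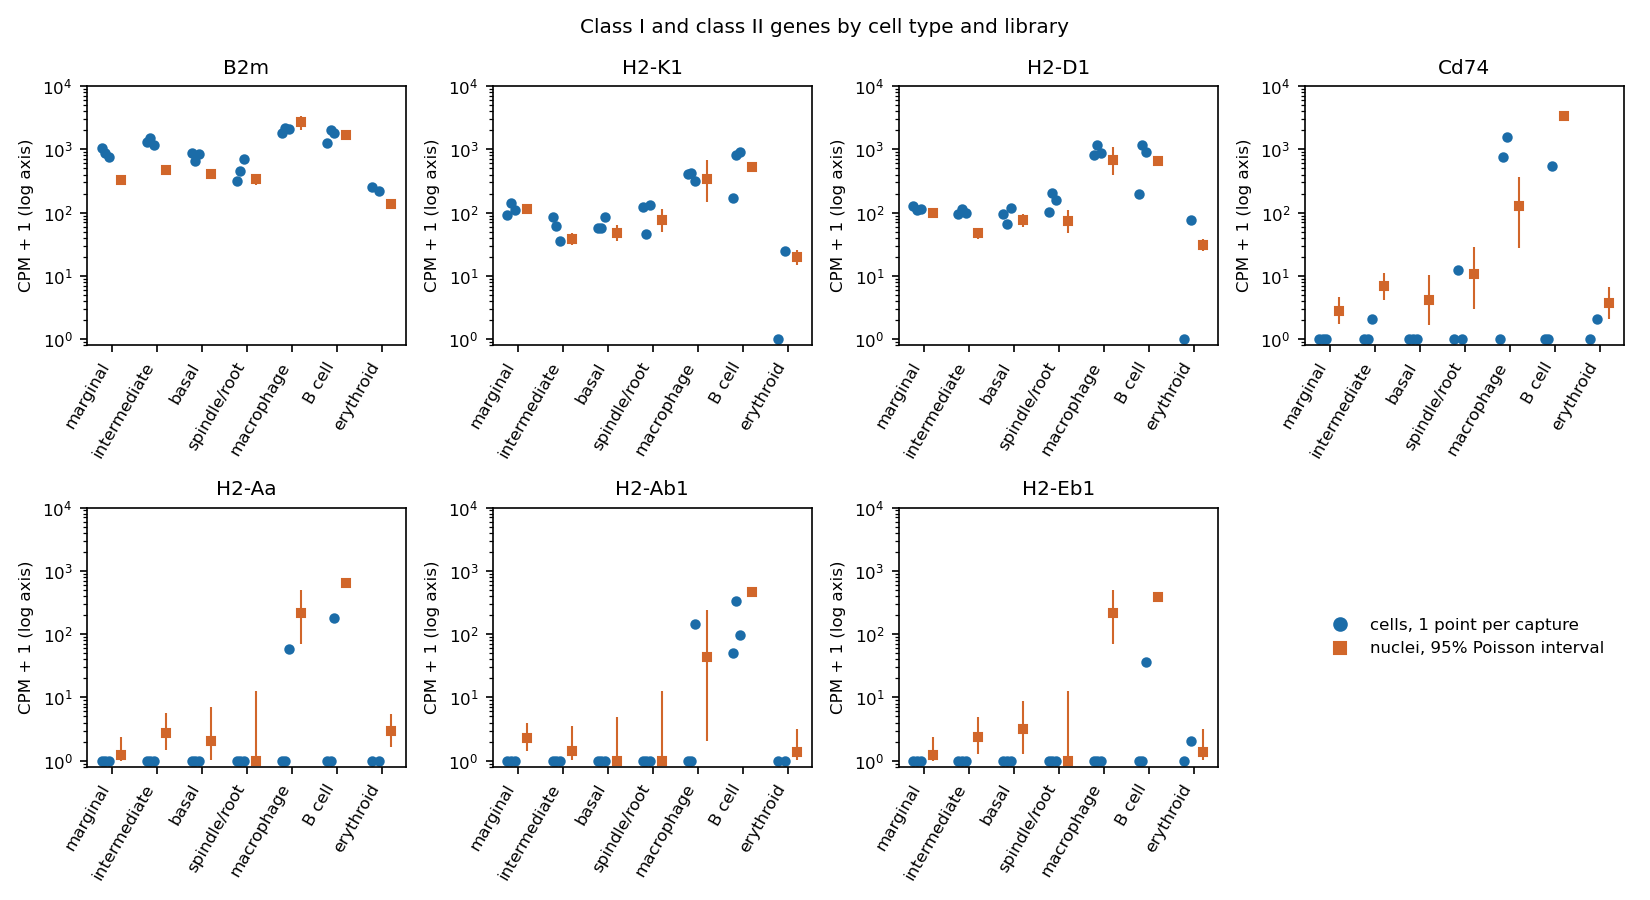
Level of each of the 7 genes by cell type, as CPM + 1 on a log axis. Blue points are the cell captures and orange squares the nucleus library with its exact 95% Poisson interval. Class I genes are above 100 CPM in macrophages and B cells and present in every SV type, whereas class II points of SV cells lie at or near 0.

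Between SV types, UMIs were summed per type and capture and fitted in edgeR with the capture as a block, each type against the mean of the other 3. Spindle/root cells of capture 1, with 4 cells, did not enter the fit. Only the class I genes passed the filter on low counts, and 5 of their 12 tests passed an adjusted p of 0.05. B2m was higher in intermediate cells by 0.97 ± 0.11 on the log2 scale (SE, edgeR adjusted p = 1.2e-12), and this call held in every alternative tried. In that comparison 35.2% of 7534 genes passed. H2-K1 was higher in marginal cells by 0.71 ± 0.23 (edgeR adjusted p = 0.0127), where 25.7% of genes passed. H2-D1 was lower in basal cells, with a log2 difference of -0.67 ± 0.21 (edgeR adjusted p = 0.0109), where 26.2% of genes passed. In spindle/root cells B2m was lower, at -0.64 ± 0.18 (edgeR adjusted p = 0.0047), and H2-D1 higher, at 0.90 ± 0.31 (edgeR adjusted p = 0.0242), where 21.5% of genes passed. H2-K1 in intermediate cells missed the threshold at -0.52 ± 0.24 (edgeR adjusted p = 0.0797) but passed it in 6 of 13 alternatives. DESeq2 called 2 of the 12. Without capture 2 also 2 passed, B2m in intermediate cells and, not among the 5, H2-K1 in intermediate cells (-0.83). H2-K1 in marginal, H2-D1 in basal and B2m and H2-D1 in spindle/root cells each lost their call without capture 2, with adjusted p of 0.540 for H2-K1 in marginal and 0.620 for H2-D1 in basal cells. In that fit spindle/root cells are 1 sum of 13 cells, which is assumed to vary like the other types. Of 13 alternatives, B2m in spindle/root cells lost its call in 3, among them DESeq2 and the fit without TMM scaling. H2-D1 lost its call there in 4, among them the fits without the filter on low counts and without doublet removal.

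**Figure D2:**
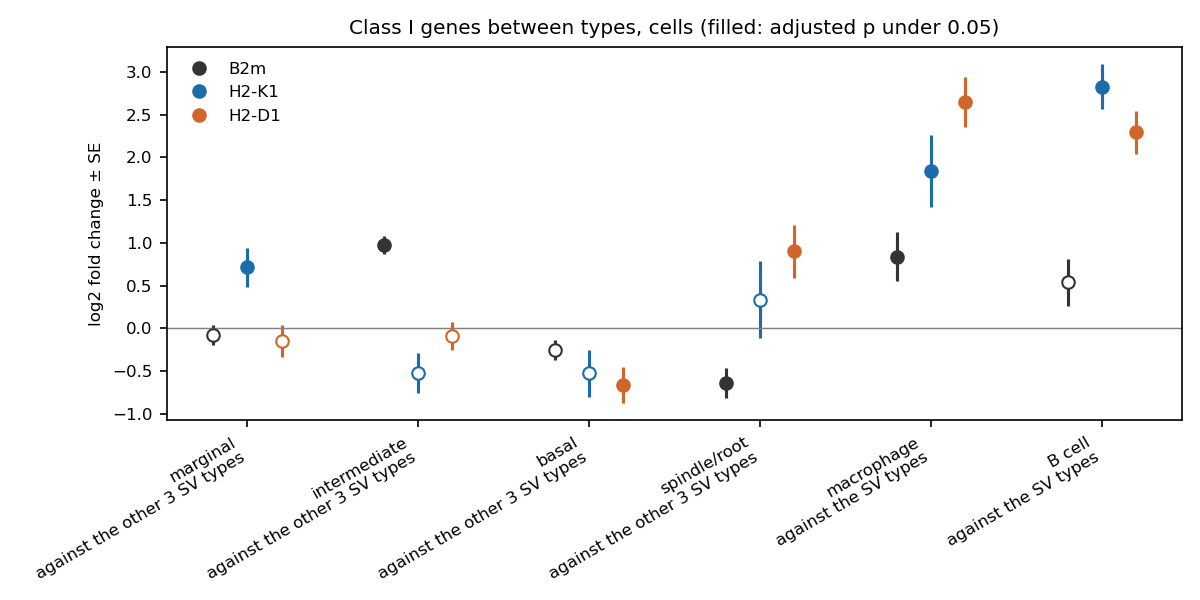
Log2 fold change ± SE of the class I genes between types of the cell captures, from edgeR. Filled points have an adjusted p under 0.05. B2m is highest in intermediate cells among SV types, and H2-K1 and H2-D1 stand further above the SV types than B2m does in macrophages and B cells.

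Class II transcripts were almost absent from SV cells. Over 4643718 UMIs of the 4 SV types together, Cd74 had 2 UMIs, 1 in an intermediate and 1 in a spindle/root cell, and H2-Aa, H2-Ab1 and H2-Eb1 had 0. A count of 0 allows up to 0.646 CPM at this depth, by 3 counts of the total. Each of the 3 chains was thus at 0 of 134 marginal and of 616 intermediate cells. In SV nuclei, Cd74 had 26 UMIs of 7425216 (3.50 CPM) and each chain gene 6 UMIs (0.808 CPM), and by type Cd74 ran from 1.77 CPM in marginal to 9.55 CPM in spindle/root nuclei. Erythroid nuclei, which should lack these genes, had 2.73 CPM of Cd74 (95% Poisson interval 1.10 to 5.63), an interval that holds the value of all SV nuclei pooled. The values of intermediate nuclei (5.83 CPM, 13 UMIs in 4 of 1462 nuclei) and of spindle/root nuclei (3 UMIs) lay above it. Their own intervals (3.10 to 9.96 and 1.97 to 27.9 CPM) overlap it. Erythroid nuclei were deeper, with a median of 5261 UMIs against 1420 in intermediate and 1495 in spindle/root nuclei. By share of nuclei with a Cd74 UMI, erythroid nuclei were higher, at 1.43% against 0.274% and 0.957%. In intermediate nuclei the 4 H2-Aa UMIs lay in 1 nucleus. Summed macrophage markers were at 4.36 to 15.3 CPM in SV cells and 28.3 to 44.3 CPM in SV nuclei, and B cell markers, 7 counted in the cells and 10 in the nuclei, at 0 to 6.30 and 9.55 to 14.8 CPM. Between 1 and 8 of 11 macrophage markers had a UMI in an SV type of the cells and between 7 and 11 in the nuclei. Fcgr1 and Cd163 were at 0 in each SV type of the cells, as were Ms4a1, Pax5 and Bank1 among the B cell markers. The part of these traces in the class II counts was not tested.

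Macrophages carried more class I RNA than the SV types. In the fit with macrophages and B cells added, B2m, H2-K1 and H2-D1 were higher in macrophages, where 20.7% of 6719 genes passed in either direction and 7.01% were higher. Cd74, H2-Aa and H2-Ab1 passed the filter on low counts only through the sums of macrophages and B cells, so against the SV types their levels are given without a test. H2-K1 reached 412, 425 and 318 CPM in the 3 captures, above the values of every SV type (log2 1.84 ± 0.42, SE, edgeR adjusted p = 2.44e-04), although not past the threshold without capture 2 (adjusted p = 0.0666). H2-D1 reached 824, 1180 and 867 CPM (log2 2.65 ± 0.29, edgeR adjusted p = 6.65e-18). B2m differed less, by 0.83 ± 0.29 (edgeR adjusted p = 0.0231), a call that was lost without capture 2 (adjusted p = 0.392) or without capture 3 (adjusted p = 0.594). Over pooled cells the excess was 1.96-fold for B2m (95% interval 1.64 to 2.33), 4.95-fold for H2-K1 (3.10 to 7.56) and 9.24-fold for H2-D1 (6.96 to 12.1), counting error only. The sums of macrophages and B cells held 3 to 24 cells, and the median log2 difference of all genes was -0.78 for macrophages and -0.76 for B cells. Without TMM scaling those medians are -0.14 and -0.26, and the share of called genes that were higher rises from 33.9% to 66.0% in macrophages and from 32.1% to 50.6% in B cells. In the SV types the same change took that share from 52.3% to 31.1% in intermediate and from 55.8% to 72.2% in spindle/root cells. The fitted directions of the class I genes in macrophages and in B cells were the same under both scalings.

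Class II RNA in macrophages was carried by few cells. Cd74 stood at 0, 755 and 1590 CPM in the 3 captures (782 ± 795, SD, n = 3). All of its 71 UMIs came from 4 of 18 macrophages, with 49, 16, 5 and 1 UMIs, so that 1 cell held 69.0% of them. H2-Ab1 had 5 UMIs and H2-Aa 2, each in 1 cell, and H2-Eb1 had 0. Without the cell that held most Cd74, its mean fell to 323 CPM. Over pooled cells H2-Ab1 stood at 79.3 CPM (Poisson interval 25.7 to 185), with all 5 UMIs in 1 cell. This value is 123-fold the limit a count of 0 allows over the SV cells, a fold that leaves out the interval. In the nuclei named macrophage Cd74 had 3 UMIs in 2 of 17 nuclei (127 CPM, 26.2 to 371). H2-Aa and H2-Eb1 had 5 UMIs each in 2 nuclei.

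B cells were higher than the SV types for H2-K1 and H2-D1, where 43.1% of genes passed in either direction and 13.8% were higher. H2-K1 stood at 172, 825 and 892 CPM (log2 2.83 ± 0.27, SE, edgeR adjusted p = 3.47e-23) and H2-D1 at 196, 1156 and 916 CPM (log2 2.29 ± 0.25, edgeR adjusted p = 3.07e-18). Capture 1, with 3 B cells, lay well below the others for both heavy chains but still above all SV values of H2-K1. The B cells include precursors. H2-K1 was at 328 CPM in 8 cells with a UMI of the precursor genes Vpreb1 or Igll1. It was at 1319 CPM in 3 cells with Ms4a1, a gene of mature B cells, and at 1106 CPM in 19 with none of these. In nuclei the same split gave 515, 495 and 525 CPM. The part of this makeup in the levels was not tested. B2m did not pass, at 0.54 ± 0.28 (edgeR adjusted p = 0.1004), but passed in 6 of 15 alternatives. Among these were DESeq2 (adjusted p = 0.0256) and the edgeR fits without TMM scaling and without doublet removal. The 6 also include a fit where B cells are only the sum of capture 3. Cd74 was seen only in capture 3, at 535 CPM, with 0 in captures 1 and 2, which held 3 B cells each. Its 45 UMIs came from 8 of 30 cells, and 1 cell held 27. H2-Aa had 15 UMIs in 5 cells and H2-Ab1 12 UMIs in 8 cells, the latter at 49.1, 330 and 95.2 CPM in the captures. Capture 3 held 24 of the 30 B cells, and without it the edgeR adjusted p was 0.0845 for H2-K1 and 0.163 for H2-D1. Over pooled cells H2-Aa stood at 115 CPM (95% Poisson interval 64.2 to 189) and H2-Ab1 at 91.7 CPM (47.4 to 160). These values are 177-fold and 142-fold the limit a count of 0 allows over the SV cells, folds that leave out the intervals.

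Between macrophages and B cells Cd74 is given without a test, as it passed the filter only through these sums. It stood at 0, 755 and 1590 CPM in macrophages and at 0, 0 and 535 CPM in B cells. In macrophages 1 cell held 49 of its 71 UMIs, and in B cells 1 held 27 of 45. In this comparison 8.65% of genes passed. The edgeR fit called Cd74 higher in macrophages, a call that supports nothing. The call was lost without the replicate block, without capture 3 and in DESeq2. It was also lost with immune cells defined cell by cell from markers, where macrophages held 71 and B cells 76 Cd74 UMIs. Among the named nuclei the order was the opposite, at 127 CPM of Cd74 in macrophages against 3418 CPM in B cells. The macrophage value rests on 3 UMIs in 17 nuclei. A cluster of 22 nuclei with 7011 CPM of Cd74 also scored highest as macrophage. It was left unnamed because too few macrophage markers were raised, by a rule set after member levels had been seen. The order with that cluster counted as macrophage was not tested. The log2 difference of H2-K1 was -0.99 ± 0.38 and missed the threshold (edgeR adjusted p = 0.0860), but passed it in 6 of 15 alternatives. It was furthest from 0, at -1.82, when each immune sum held at least 5 cells. In that fit B cells are only the sum of capture 3 (24 cells), without a replicate. Cd74 was found in 4 of 18 macrophages and 8 of 30 B cells.

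**Figure D3:**
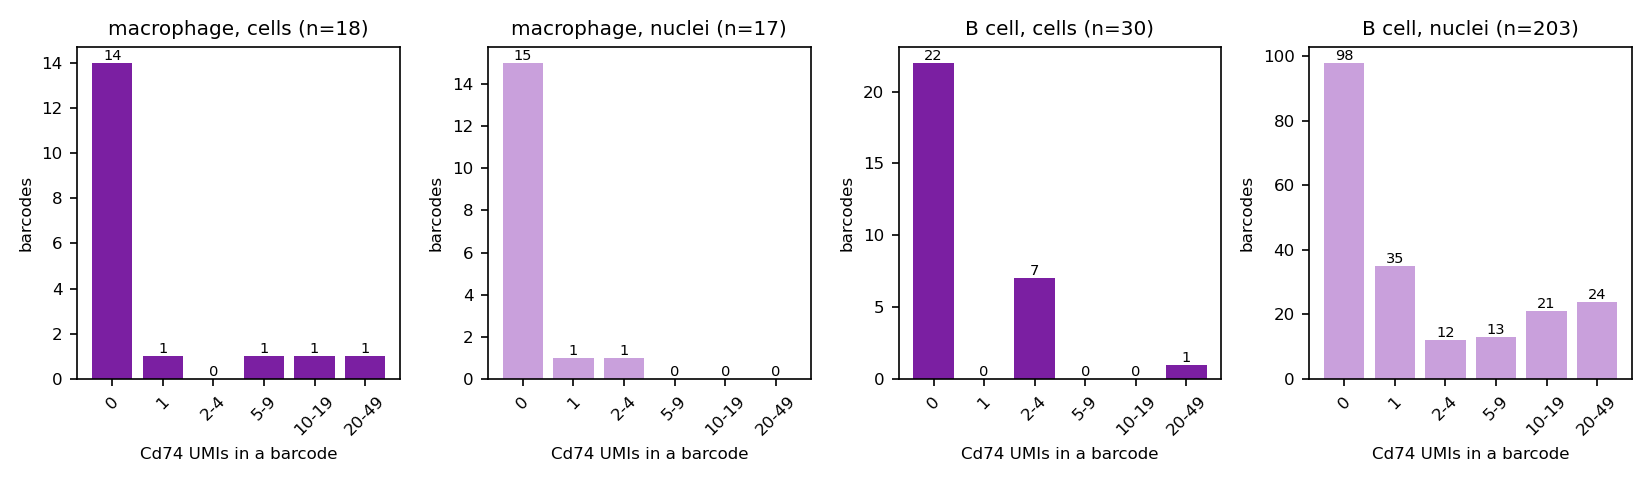
Number of barcodes by their Cd74 UMIs, for macrophages and B cells among cells and nuclei. Most macrophages and most B cells among the cells have 0 Cd74 UMIs, while in B cell nuclei 105 of 203 have at least 1.

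The nuclei held more B cells, and in them the class II genes split the type. Cd74 had 1168 UMIs in 105 of 203 B cell nuclei (3418 CPM, 3225 to 3620), H2-Aa 635 CPM, H2-Ab1 465 CPM and H2-Eb1 380 CPM. The nuclei fell into 9 clusters, made with the 7 genes kept out of the variable genes. Class II genes still led some of them, so their levels by cluster are a description. Cd74 ran from 191 CPM in the cluster led by cell cycle genes such as Top2a to 17120 CPM in a cluster of 24 nuclei led by Cd74, Bank1 and H2-Eb1, where all nuclei had a Cd74 UMI. The 3 clusters with Cd74 at 4102 CPM or more also had 1368 to 2478 CPM of Ms4a1, the CD20 gene of mature B cells, and 0 UMIs of Vpreb1, a part of the surrogate light chain of B cell precursors. The other 6 had at most 150 CPM of Ms4a1.

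H2-Aa, H2-Ab1 and H2-Eb1 followed Cd74 across these clusters, with Pearson r of 0.83, 0.89 and 0.90 on log2(CPM + 1) over 9 clusters of 1 library, given as a description. H2-Aa reached 2514 CPM, H2-Ab1 2068 CPM and H2-Eb1 2387 CPM in the cluster with most Cd74. H2-Eb1 had 0 UMIs in the 4 clusters with least Cd74. B2m did not follow (r = -0.09, 1198 to 2766 CPM) and neither did H2-K1 (r = 0.09), while H2-D1 was in between (r = 0.70). Ms4a1 followed with r = 0.83 and Vpreb1 ran opposite with r = -0.85.

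**Figure D4:**
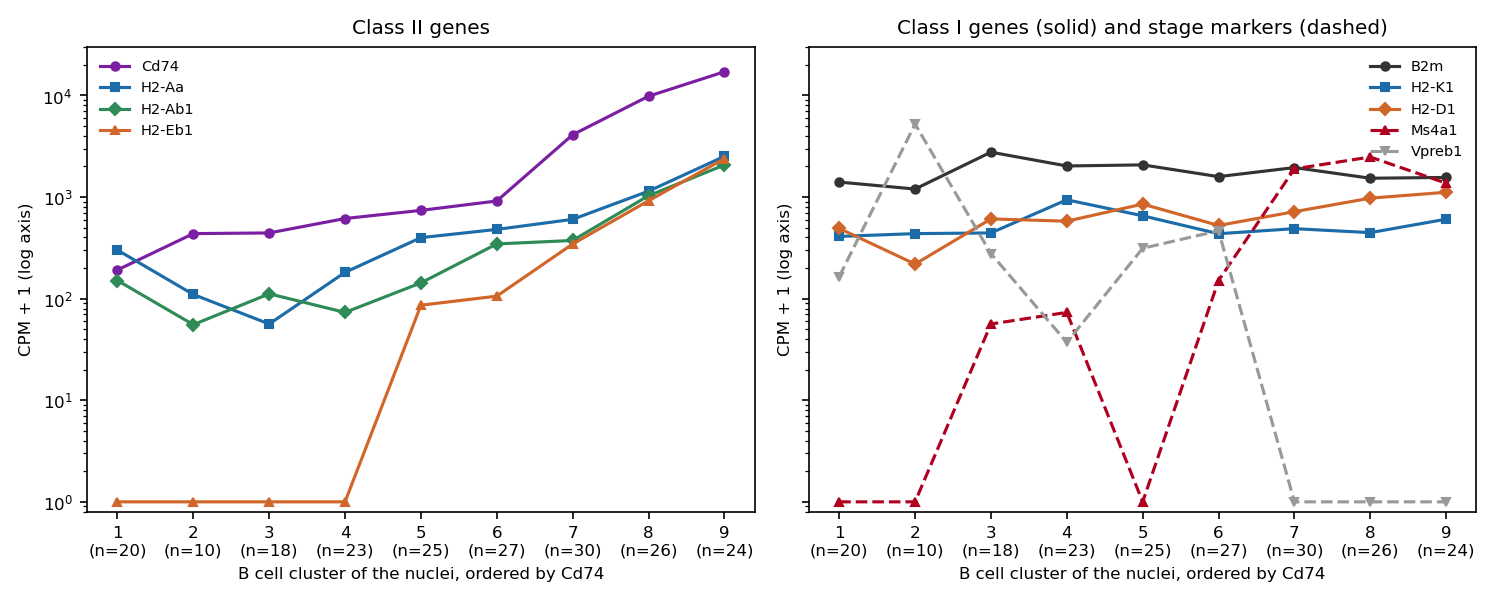
Level of class II genes (left) and of class I genes and 2 stage markers (right) in the 9 clusters of B cell nuclei, ordered by Cd74, as CPM + 1 on a log axis. Class II genes and Ms4a1 are highest in the clusters at the right end, and B2m stays between 1198 and 2766 CPM. In the last cluster, with most Cd74, Ms4a1 is lower (1368 CPM) than in the cluster before it (2478 CPM).

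Splitting by marker UMIs in each nucleus gave the same order of levels. Nuclei with an Ms4a1 UMI and no Vpreb1 or Igll1 UMI (n = 62) had 11175 CPM of Cd74 (10466 to 11919), against 221 CPM (137 to 337) in nuclei with Vpreb1 or Igll1 and no Ms4a1 (n = 36) and 1355 CPM (1183 to 1546) in nuclei with none of these UMIs (n = 105). H2-Eb1 had 0 UMIs in the precursor-marked nuclei (95% Poisson interval 0 to 38.8 CPM). B2m stood at 1534, 1629 and 1832 CPM in the same order, with overlapping intervals. The nuclei with the lower class II level were the deeper ones, with a median of 2281 UMIs against 1459. With 1 nucleus library no test was possible, and the intervals cover counting error only.

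Cells and nuclei of the same type were compared by ratio, the mean of the captures over the nucleus value, with no test since there is 1 nucleus library. Of the 12 ratios of class I genes in the SV types, 11 were above 1. The genes compared had a nuclear UMI and a mean of at least 20 CPM over cells and nuclei. Among them, ratios above 1 were 53.5% in marginal, 53.5% in intermediate, 54.5% in basal and 42.9% in spindle/root cells. The ratio of B2m was 2.74 in marginal cells (all 3 captures above the nuclear interval), 2.87 in intermediate and 1.97 in basal cells, above 85.3%, 89.0% and 74.0% of the genes compared. H2-K1 was level in marginal cells at 0.994, and 1.61 in intermediate cells. H2-D1 was 1.203 in marginal and 2.19 in intermediate cells.

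In macrophages the ratio was 0.759 for B2m, 1.14 for H2-K1, 1.41 for H2-D1 and 6.16 for Cd74, which had 3 UMIs in the nuclei. In B cells it was 0.987 for B2m, 1.22 for H2-K1 and 1.14 for H2-D1. The median ratio was 0.240 over 6608 genes in macrophages and 0.653 over 6307 genes in B cells. Those genes needed a UMI in the nuclei but none in the cells. As 1 UMI is 42.3 CPM in macrophage nuclei, this choice of genes itself lowers the median, which is no baseline for the ratios. Cd74 in B cells was 0.0522, from 178 CPM in cells against 3418 CPM in nuclei, and H2-Aa was 0.0937, H2-Ab1 0.340 and H2-Eb1 0.0313. Ms4a1-marked nuclei were 62 of 203 B cell nuclei and Ms4a1-marked cells 3 of 30 B cells, so the makeup of the B cells differs between the assays and its part in the ratio was not tested. In the 6 cells of the B cell cluster with most Cd74 it reached 2069 CPM, of which 27 of 32 UMIs lay in 1 cell.

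T or NK cell nuclei (n = 13) had the highest B2m of any named type, at 4321 CPM (3368 to 5459), 1111 CPM each of H2-K1 and H2-D1, and no class II UMI, which allows up to 185 CPM. Neutrophils had 942 CPM of B2m and 507 CPM of H2-D1 but 78.5 CPM of H2-K1 in nuclei, with 15.7 CPM of Cd74. Dendritic-like nuclei led by Siglech (n = 8) had 2173 CPM of Cd74, of which 51.2% lay in 1 nucleus. Fibrocyte nuclei had 519 CPM of B2m and 29.7 CPM of Cd74, from 4 UMIs in 66 nuclei.

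The genes around the 7 were described from lists, of which each count below is of those that passed the filter, beside the share of all genes given above. In intermediate cells 6 of 6 tested interferon-response genes were higher, where 1387 of 7534 genes were higher. Isg15 stood at 1.66 ± 0.43, Ifitm3 at 1.66 ± 0.11 and Ifit3 at 1.44 ± 0.21 on the log2 scale (edgeR adjusted p = 9.94e-04, 3.35e-26 and 7.77e-09). The count of interferon-response genes was 6 in each fit without a capture and without TMM, and 5 in DESeq2. The non-classical heavy chains H2-T23 (1.28 ± 0.18) and H2-T22 (0.93 ± 0.24) were also higher there, as 2 of 4 tested heavy chains beside the members. Of the regulators, 3 of 6 tested were higher, among them Ifngr2 (1.48 ± 0.29), a subunit of the interferon gamma receptor, and Nfyc (1.24 ± 0.38), a subunit of NF-Y. Nfyc had 126 UMIs of 2374091 in intermediate and 64 of 1111030 in marginal cells, so its pooled share was not higher in intermediate cells. Ifi30 and Lgmn, endosomal enzymes of class II processing, were higher in intermediate cells by 2.02 ± 0.35 and 0.95 ± 0.20. H2-Aa, H2-Ab1 and H2-Eb1 had 0 UMIs in intermediate cells. Nfyc and Ifi30 each had 1 UMI in spindle/root cells, under the floor of 3 counts, and their differences rest in part on that count.

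In marginal cells 4 of 6 interferon-response genes were lower, led by Ifitm3 (-1.70 ± 0.15, edgeR adjusted p = 1.8e-18), and without capture 2 the count was 2. Of all genes 676 of 7534 were lower there. Psme2, a subunit of the proteasome activator PA28, was lower there (-1.99 ± 0.28) and higher in spindle/root cells (2.11 ± 0.35). Peptide-loading genes, which fill class I molecules in the endoplasmic reticulum, split by direction in intermediate cells, where Tap2 (1.15 ± 0.36) and Pdia3 (0.43 ± 0.13) were higher and Tapbpl lower (-2.05 ± 0.57). Tap2 had 2 UMIs in spindle/root cells, and its difference rests in part on that low count. The 3 higher calls among these 6 genes went to 0 in DESeq2 and 1 without TMM.

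The immunoproteasome subunits Psmb8 and Psmb9 had 8 and 6 UMIs in all SV cells together, 12 and 10 in macrophages and 35 and 22 in B cells, and as they passed the filter through the immune sums no test is given. Of the list's genes also tested among the SV types, Psmb10, also an immunoproteasome subunit, was higher in B cells by 2.34 ± 0.60 (edgeR adjusted p = 5.47e-04). Psme1 was higher there by 1.60 ± 0.39 and Psme2 by 0.94 ± 0.41 (edgeR adjusted p = 3.11e-04 and 0.0491). Without capture 3 only 1 gene of the whole list passed. That count does not leave out Psmb8 and Psmb9, so it does not tell which gene it was. Ctss, a protease that trims the invariant chain, had 93 UMIs in macrophages and 3 in SV cells. Lgmn and Ifi30 were higher in macrophages by 2.88 ± 0.32 and 2.48 ± 0.71 (edgeR adjusted p = 1.35e-17 and 0.00467). Of the whole class II accessory list, 2 genes passed without capture 2 and 2 without capture 3. These counts do not leave out Ctss, so they do not tell whether Lgmn or Ifi30 was among them. Interferon-response genes were lower in B cells for 5 of 5 tested, where 1964 of 6719 genes were lower. The count was 3 without TMM and 2 without capture 3. Ciita, the class II master regulator, had 1 UMI in B cells and 0 in macrophages and in the SV types, and Nlrc5, its class I counterpart, had 1 UMI in B cells, so neither could be compared at this depth.

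**Figure D5:**
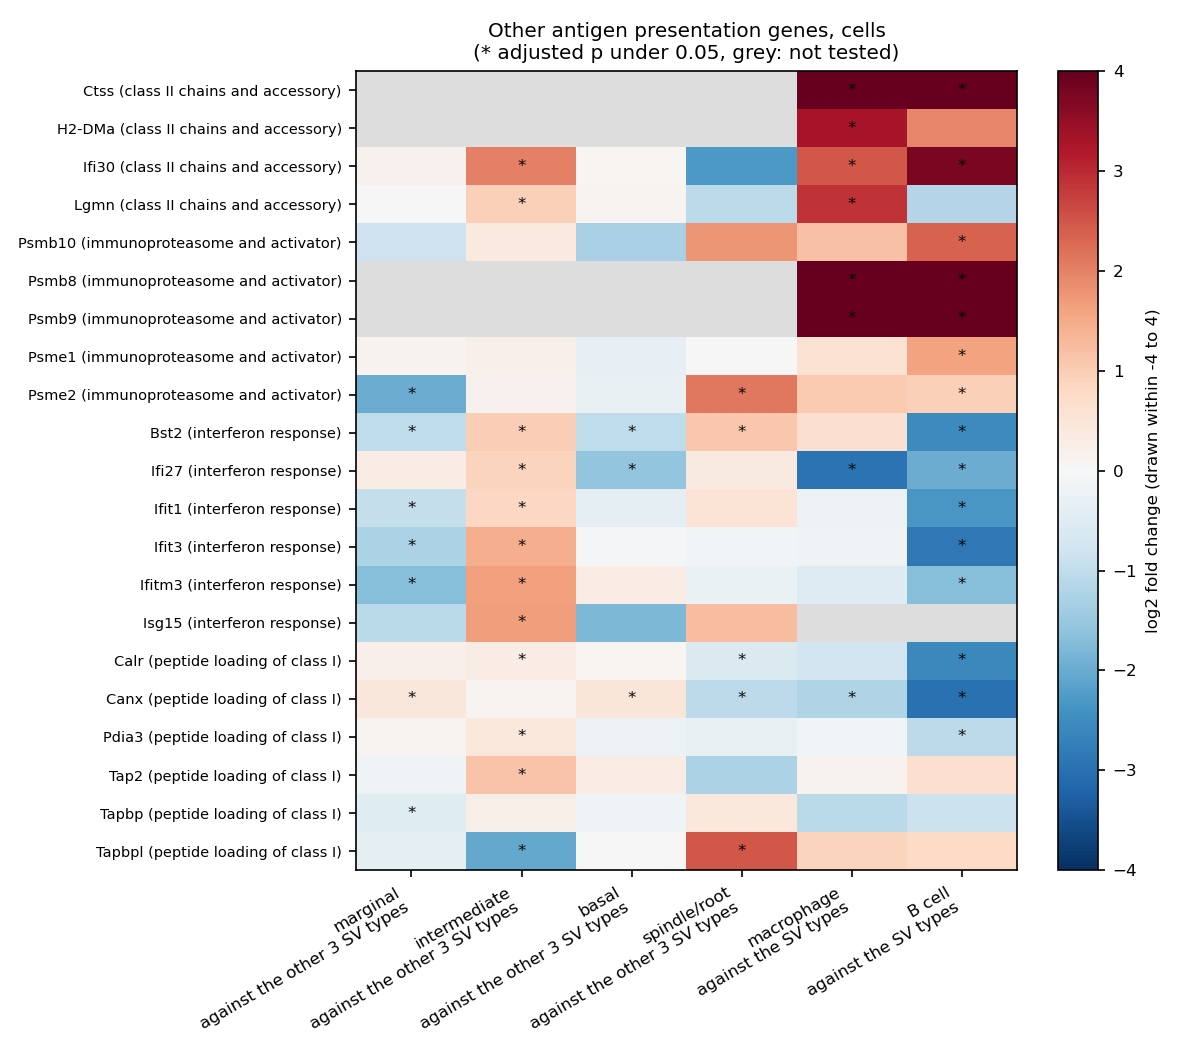
Log2 fold change in the cell captures for genes of 4 lists around antigen presentation, by comparison, drawn between -4 and 4. Stars mark an edgeR adjusted p under 0.05 and grey cells were not tested. Interferon-response genes are higher in intermediate cells in 6 of 6 (1387 of 7534 genes over all) and lower in B cells in 5 of 5 (1964 of 6719 genes over all).

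Over 21 sums of type and capture, the genes outside the 7 whose levels were most like B2m were Git2 (Pearson r = 0.87), Lamtor1 (0.86), R3hdm1 (0.83), Cyba (0.82) and Cotl1 (0.81). For H2-Aa, which was closer to H2-Eb1 (0.75), Cd74 (0.73) and H2-Ab1 (0.64), they were Cd79b (0.58), Sub1 (0.56), Cdc20 (0.55), Crip1 (0.54) and Supt4a (0.54). Among these sums H2-Aa had UMIs only in capture 3, with 2 in macrophages and 15 in B cells, so its r values rest on those sums. Cd79b was also a marker used to name the B cells. Sums of a capture share a suspension and a depth, so these are descriptions without a p. Among the 7, H2-K1 and H2-D1 were closest (r = 0.94).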

How the data were processed

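The authors deposited UMI counts per gene and barcode, made with Cell Ranger 2.0.0 on mm10 per the submitters' processing notes, for 3 cell captures and 1 nucleus capture. Barcodes with under 200 genes and called doublets, at a rate rising with the number of barcodes, were left out (kept 377, 1314, 1461 and 9723). Clusters came from Seurat 5.3.0 (R 4.3.3) on 2000 variable genes, without the members and wider lists (69 genes), at resolution 0.8, with clusters of at least 30 barcodes and the immune barcodes clustered again, on fixed numerical library settings and seeds. A cluster took the class of highest marker score when at least 3 of its markers were raised 2-fold and found in 10% of barcodes, the next such class scored under 0.6 of it, no other class had more markers among the 10 leading genes and, for immune classes, 50% of markers were raised. Shallow clusters led by none of their markers stayed unnamed, as did SV clusters with under 1% Malat1. The members and lists were chosen with earlier results of these data known, and the naming rule was set after clusters and member levels had been seen. UMIs summed per type and capture were tested in edgeR 4.0.16 (quasi-likelihood, TMM, filterByExpr, capture as block, Benjamini-Hochberg over all genes, threshold 0.05), with DESeq2 1.42.0 as an alternative. Nuclei have exact 95% Poisson intervals, and all intervals and the floor of 3 counts cover counting error only. Captures were separate pools of mice. With the capture as block, p-values measure how differences between types vary from pool to pool, the sampling of cells included. They do not measure the spread of levels between pools. The fit shares its estimate of spread over genes and types, so a small p does not show that the named gene varied little between captures. H2-K1 in B cells had an edgeR adjusted p of 3.47e-23 with captures from 172 to 892 CPM. The pairing of types within a capture comes from their shared suspension, and deviations correlated at 0.0102 to 0.144 in 15 same-capture pairs and at -0.145 to 0.0257 in 30 others. All 7 members are named, with up to 3 called genes of largest change per wider list and comparison and the 5 genes outside the members most like B2m and H2-Aa. On simulated data for marginal cells (6576 genes), of 100 genes given a 4-fold change 83 were called by edgeR, and of 100 given a 2-fold change 55, with 9 false calls. For macrophages (4896 genes) it recovered 24 of 101 and 2 of 99, with 1 false call. Some items of the lists and windows are not reported here.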

Additional observations from a re-analysis of the deposited data

Results flagged for a closer look

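In 3 SV types B2m lay above the nuclear interval in every cell capture, with ratios of cells to nuclei of 2.74 in marginal, 2.87 in intermediate and 1.97 in basal cells. In macrophages the ratio was 0.759, with 1 of 3 captures below the nuclear interval and 58.7% of the nuclear B2m UMIs in 1 nucleus. The difference between these ratios was not tested.

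Class II signal was also found in clusters that no comparison used because they had no name. A nuclear cluster of 22 nuclei led by Lyz2, Ms4a6c, Cd74 and F13a1 had 7011 CPM of Cd74 from 370 UMIs. Its highest-scoring class was macrophage, but too few macrophage markers were raised for that name. The low Cd74 of macrophage nuclei given above therefore holds for the named nuclei only. A cell cluster of 10 cells led by Cd74, AW112010 and H2-Aa had 1885 CPM of Cd74 and 4767 CPM of B2m. Its highest-scoring class was T or NK cell, with B cell too close for a name. A cell cluster of 9 cells led by Plac8, Ly6c2, Lyz2 and Elane had 366 CPM of Cd74, with all 37 UMIs in 1 cell.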

How the results depend on the processing

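Of the 12 class I tests among SV types, 5 passed, against 2 in DESeq2 and 2 to 6 when a capture was left out (2 without capture 2). Members passed in macrophages numbered 6, against 3 in DESeq2 and 3 to 5 with a capture left out, and in B cells 5, against 3 in DESeq2 and 0 to 5 with a capture left out (0 without capture 3). These counts hold 3 class II genes that passed the filter only through the immune sums and support nothing. Between macrophages and B cells 1 passed, Cd74, which passed the filter only through these sums and supports nothing. The count was 0 in DESeq2 and 0 to 2 with a capture left out. It was 2 with mitochondrial genes left out and without doublet removal, where H2-K1 passes beside Cd74. No count is given with at least 5 cells in each immune sum, where B cells are only the sum of capture 3. Without the replicate block the counts were 5, 6, 5 and 0 in the order given. For the ratios, no paired analysis was possible because nuclei and cells came from different suspensions, and 11 to 12 of 12 ratios were above 1 with a capture left out.

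Directions turned only for log2 differences that did not pass. With a capture left out, B2m in marginal cells ran from -0.19 to 0.11, H2-K1 in spindle/root cells from -0.83 to 1.06, each end from 1 sum of 13 cells, and H2-K1 in intermediate cells turned to 0.16, each turning without capture 3. Between macrophages and B cells B2m ran from -0.18 to 0.41, H2-D1 from -0.091 to 1.39 and H2-Ab1 from -0.22 to 0.012, each turning without capture 2, and H2-K1 from -1.39 to 0.37, turning without capture 3. There B2m (-0.16) and H2-D1 (-0.28) also turned with at least 5 cells in each immune sum. The cause was not tested. Genes called in DESeq2 against edgeR were 1265 against 1934 in marginal cells, 1284 against 1976 in basal cells and 329 against 581 between macrophages and B cells. With a capture left out they were 1243 to 1720 in marginal, 1161 to 1680 in basal, 961 to 1623 in spindle/root, 372 to 1005 in macrophages (1389 with all), 734 to 2397 in B cells (2893 with all) and 112 to 453 between the last 2. Chosen after seeing the data, leaving out the cell with most Cd74 gave 323 CPM in macrophages and 75.0 CPM in B cells. With 20 principal components no nuclei were named macrophage. Few immune cells, of 18 macrophages and 30 B cells, limit the class II values. The split of immune cells into clusters, and with it which cells are named B cells, also moved with the settings of the numerical library, which were therefore fixed.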

Other observations

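Of 232 Cd74 UMIs in the cells, 30.6% lay in macrophages, 19.4% in B cells and 48.3% in unnamed barcodes. Unnamed barcodes, 67.3% of the cells, also held 77.0% of 74 H2-Aa, 39.3% of 28 H2-Ab1 and 77.8% of 18 H2-Eb1 UMIs. For B2m, H2-K1 and H2-D1 their share was 58.5%, 41.9% and 44.6%, and levels by type leave these UMIs out. Of 1633 in the nuclei, 71.5% lay in B cells and 23.3% in unnamed barcodes.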
